A study of Bos taurus with 4 samples.

Results

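*NANOG*, *SOX2* and *PRDM14* encode transcription factors of pluripotent cells, and they were followed here in the inner cell mass (ICM) of bovine blastocysts cultured with or without an inhibitor of MAPK signalling. All probes that carried 1 of these symbols in the platform annotation were taken, which gave 9 of 43653 probes and 3 of 12545 named genes. *NANOG* had 3 probes, *SOX2* had 5 and *PRDM14* had 1. Probes of a gene are numbered from the brightest to the dimmest, and since they share a target they are not replicates of each other.

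The embryos of both groups were *Bos taurus* embryos matured, fertilised and grown in vitro, and their ICMs were cut from the trophectoderm by hand on day 9. MAPK-inhibited ICM came from embryos kept from day 5 in PD0325901, which blocks MEK, the kinase that activates ERK. Control ICM came from embryos kept in the solvent DMSO after the same medium change. Each group comprised 2 arrays, and every array carried 1 ICM sample against the same blastocyst pool, with the sample in Cy3 on replicate a and in Cy5 on replicate b. The RNA of many embryos was combined in a sample, and a hand-cut ICM holds epiblast and hypoblast and can keep some trophectoderm cells. The study describes its replicates as biological, while the labels do not say which cultures they came from. The p-values measure the spread between these samples, drawn in part from all probes of the arrays.

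Pluripotent cells are those that can still form all tissues of the embryo proper. In the mouse ICM, cells with NANOG become epiblast and cells with GATA6 become hypoblast, and FGF signalling through MEK and ERK favours the hypoblast. SOX2 works as a partner of OCT4 on the enhancers of pluripotency genes. PRDM14 is a zinc finger protein of the PR domain family that, in mouse embryonic stem cells, dampens FGF signalling and DNA methylation.

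The arrays were not of equal quality. Spots whose pixels had an SD over 0.5 of their mean in either channel made up 34.2% and 10.3% on the MAPK-inhibited arrays, against 0.22% and 0.10% on the control arrays. Of the 9 probes, 3 had such a spot on at least 1 array, against 44.4% of all probes. Over all probes the ICM channel had a median of 110 and 133 on the MAPK-inhibited arrays and of 167 and 175 on the control arrays. All 9 probes of the 3 genes lay above background in the ICM sample on all 4 arrays, as did 36323 of all 43653 probes. Background was the 95th percentile of the array's negative control spots. The signal of *SOX2* probe 5 was 1.43 times this background on MAPK-inhibited replicate a and 2.28 to 3.24 times on the other arrays. Over all probes, arrays with the same replicate letter, and thus the same dye orientation, correlated with r = 0.551 and 0.560, which was more than the arrays of MAPK-inhibited ICM (0.430) or of control ICM (0.370) did with each other. The part of spot quality and dye in the results was not tested beyond the values given below.

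The first question was where each gene lay relative to the whole blastocyst. Values are log2 ratios of ICM over pool, so that 1 means 2-fold more transcript in the ICM sample. The pool is a common reference and not a group of samples, so these ratios were described without a test. In samples of mixed cells, more expressing cells and more RNA per cell cannot be told apart. Of the 9 probes, 8 lay above the pool on all 4 arrays, against 14.1% of all probes.

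*NANOG*, the homeobox factor that marks the epiblast, was far above the pool in both groups. Its probe 1 had log2 ratios of 2.72 and 2.66 in MAPK-inhibited ICM and of 1.39 and 1.32 in control ICM. The groups did not overlap, and the arrays within a group lay close together. The means were 2.69 ± 0.042 in MAPK-inhibited ICM and 1.35 ± 0.055 in control ICM (SD, n = 2 each), which is 6.47-fold and 2.56-fold over the pool. With the brightest probe taken for each gene, *NANOG* ranked first of 12545 genes by its ratio in MAPK-inhibited ICM and 3 by its ratio in control ICM.

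The dimmer *NANOG* probes had smaller ratios in the same order. Probe 2 had 1.71 and 1.75 in MAPK-inhibited ICM and 0.99 and 0.87 in control ICM. Probe 3 had 0.45 and 0.64 in MAPK-inhibited ICM and 0.23 and 0.36 in control ICM. For both probes each MAPK-inhibited array lay above each control array, although for probe 3 the gap between the nearest arrays was small. The mean log2 intensity over both channels was 12.92 for probe 1, 8.17 for probe 2 and 7.63 for probe 3. The ratios of the dim probes moved with the background correction. Without it probe 2 had 2.35 and 1.98 in MAPK-inhibited ICM and 1.26 and 1.02 in control ICM, while probe 1 had 2.78 and 2.69 in MAPK-inhibited ICM and 1.40 and 1.33 in control ICM.

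**Figure D1:**
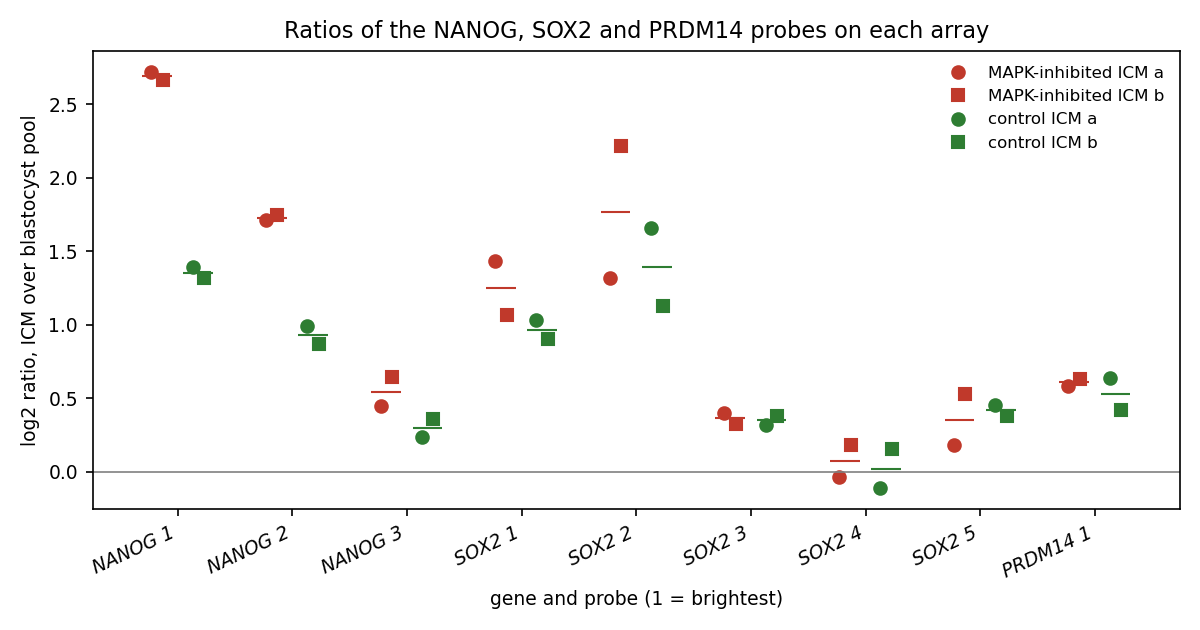
Log2 ratio of ICM sample over blastocyst pool (vertical axis) for each of the 9 probes (horizontal axis) on each of the 4 arrays; circles are replicates a, squares replicates b, and lines are the means of 2 arrays. The *NANOG* probe 1 values of 2.72 and 2.66 in MAPK-inhibited ICM stand clear of 1.39 and 1.32 in control ICM, whereas the groups overlap for *PRDM14* and for *SOX2* probes 2 to 5.

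*SOX2*, an HMG box factor that is active in the ICM and later in neural progenitors, also lay above the pool. Probe 1 had log2 ratios of 1.43 and 1.07 in MAPK-inhibited ICM and of 1.03 and 0.90 in control ICM. The groups did not overlap, but the lower MAPK-inhibited array was only just above the higher control array. The means were 1.25 ± 0.26 in MAPK-inhibited ICM and 0.97 ± 0.092 in control ICM (SD, n = 2 each). Among genes *SOX2* ranked 49 by the ratio in MAPK-inhibited ICM and 19 by the ratio in control ICM.

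The other *SOX2* probes did not separate the groups. Probe 2 had 1.32 and 2.22 in MAPK-inhibited ICM and 1.66 and 1.13 in control ICM, with the widest spread of the 9 probes. Probe 3 had 0.40 and 0.33 in MAPK-inhibited ICM and 0.32 and 0.38 in control ICM, and probe 5 had 0.18 and 0.53 in MAPK-inhibited ICM and 0.45 and 0.38 in control ICM. Probe 4 had -0.04 and 0.18 in MAPK-inhibited ICM and -0.11 and 0.15 in control ICM, and was the only 1 of the 9 probes that was not above the pool on all arrays.

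*PRDM14* was measured by a single probe and lay moderately above the pool. It had log2 ratios of 0.58 and 0.63 in MAPK-inhibited ICM and of 0.64 and 0.42 in control ICM. Both MAPK-inhibited values fell between the control values. The means were 0.61 ± 0.035 in MAPK-inhibited ICM and 0.53 ± 0.15 in control ICM (SD, n = 2 each), and *PRDM14* ranked 354 of 12545 genes by the ratio in MAPK-inhibited ICM and 174 by that in control ICM.

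The order of the 3 genes by the ratio of their brightest probe was *NANOG*, *SOX2*, *PRDM14* in both groups. The order depended on the probe, since in control ICM the mean of *SOX2* probe 2 (1.40) lay above that of *NANOG* probe 1 (1.35), and that of *NANOG* probe 3 (0.30) lay below that of *PRDM14* (0.53). For the brightest probes in MAPK-inhibited ICM the neighbours in this order did not overlap. In control ICM the lowest *NANOG* array (1.32) lay above the highest *SOX2* array (1.03), and the lowest *SOX2* array (0.90) above the highest *PRDM14* array (0.64). Such ratios compare each gene with its own level in the pool and do not compare transcript amounts between genes.

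The raw signals show what the *NANOG* ratios rest on. Before any correction, probe 1 had ICM signals of 22155 and 12440 on the MAPK-inhibited arrays and of 13606 and 13460 on the control arrays. The signal of MAPK-inhibited replicate b was thus below both control signals. In the pool channel the same spots had 5549 and 1730 on the MAPK-inhibited arrays and 5025 and 5049 on the control arrays. On MAPK-inhibited replicate b the spot was thus a little below the control spots in the ICM channel and far below them in the pool channel. The pool was the same on every array, so the high ratio of this array goes with a low pool signal. Divided by the median of the array and channel, the ICM signal was 202 and 93.3 on the MAPK-inhibited arrays and 81.3 and 76.8 on the control arrays, and the pool signal was 37.6 and 12.8 on the MAPK-inhibited arrays and 33.3 and 27.6 on the control arrays. The spot on MAPK-inhibited replicate b was uneven, with a pixel SD of 0.55 of the mean in the ICM channel and 0.67 in the pool channel, and the other 3 spots were even (0.076 to 0.15).

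With the median of a spot's pixels in place of their mean, the log2 ratio of *NANOG* probe 1 was 2.70 and 2.06 in MAPK-inhibited ICM and 1.43 and 1.33 in control ICM. The uneven array, already the lower of its group with pixel means (2.66 against 2.72), then lay farther below the other. It stayed above both control arrays. *NANOG* probe 2 had no uneven spot. Its ICM signals were 528 and 426 on the MAPK-inhibited arrays and 353 and 296 on the control arrays, and its pool signals were 150 and 110 on the MAPK-inhibited arrays and 133 and 152 on the control arrays. For this probe the ICM signal itself was higher on both MAPK-inhibited arrays, without any scaling. Probe 3 had 161 and 178 on the MAPK-inhibited arrays and 172 and 172 on the control arrays, which overlapped.

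**Figure D2:**
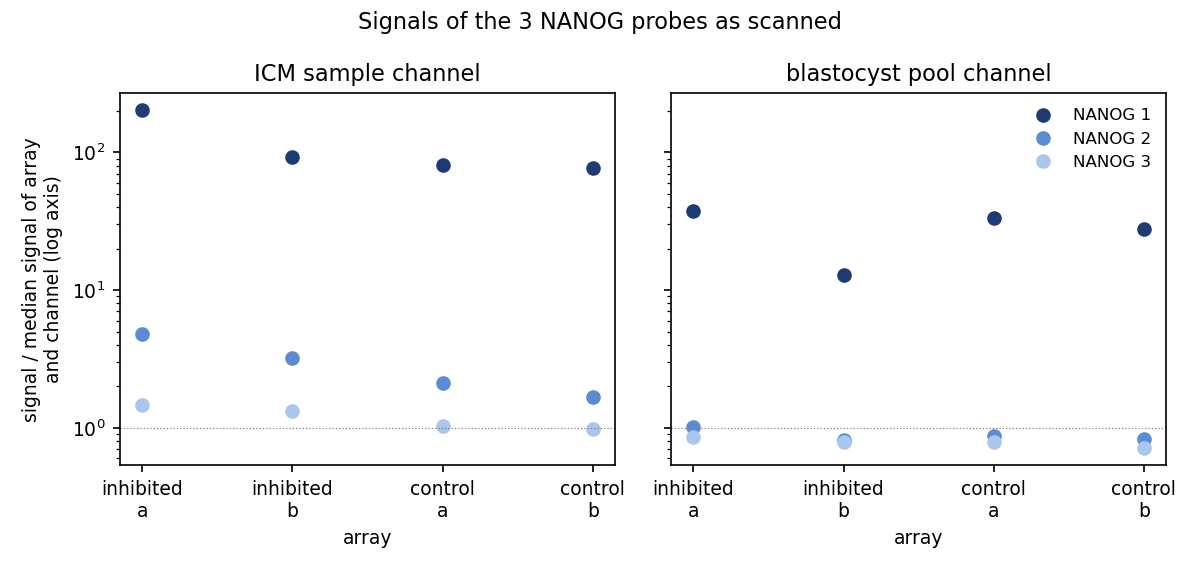
Signal of the 3 *NANOG* probes as scanned, divided by the median signal of the same array and channel (vertical log axis), for the ICM sample (left panel) and the blastocyst pool (right panel) on the 4 arrays. In the ICM channel probe 1 stood at 202 and 93.3 on the MAPK-inhibited arrays and at 81.3 and 76.8 on the control arrays, and in the pool channel MAPK-inhibited replicate b was the lowest at 12.8.

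*SOX2* probe 1 had ICM signals of 3228 and 3783 on the MAPK-inhibited arrays and of 5023 and 4308 on the control arrays. Its pool signals were 1711 and 1681 on the MAPK-inhibited arrays and 2208 and 2365 on the control arrays. Both channels were therefore dimmer on the MAPK-inhibited arrays, and after division by the array median the ICM signal overlapped between the groups, at 29.4 and 28.4 on the MAPK-inhibited arrays and 30.0 and 24.6 on the control arrays. The spots of *SOX2* probe 1 and probe 2 on MAPK-inhibited replicate a were uneven, with a pixel SD in the ICM channel of 0.50 of the mean for probe 1 and 0.70 for probe 2. *PRDM14* had ICM signals of 501 and 403 on the MAPK-inhibited arrays and of 682 and 579 on the control arrays, with pool signals of 447 and 250 on the MAPK-inhibited arrays and of 370 and 454 on the control arrays, and none of its spots was uneven.

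The second question was whether the 3 genes differed between MAPK-inhibited and control ICM. None of the 9 probes passed the threshold of 0.05 after adjustment over all 43653 probes, and neither did any other probe (limma with a dye term, 0 probes, smallest adjusted p = 0.263). At an unadjusted p under 0.05 the fit had 2403 probes with a higher and 2022 with a lower value in MAPK-inhibited ICM. The same fit gave 43 probes past the adjusted threshold without background correction and 319 on the authors' processed values. The fit had 1 residual degree of freedom, so a missed threshold does not show equal expression. With 2.90 prior degrees of freedom, each SE and interval rests more on the spread over all probes than on the probe's own arrays. A narrow interval is thus no measure of how well the replicates of 1 probe match.

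*NANOG* probe 1 had a log2 difference of 1.34 between MAPK-inhibited and control ICM (SE 0.071, 95% interval 1.14 to 1.54), which is 2.53-fold, with limma's unadjusted p = 5.48e-05 and adjusted p = 0.266. Replicates a alone gave 1.33 and replicates b alone 1.35 with pixel means. With pixel medians the log2 ratios were 2.70 against 1.43 in replicates a and 2.06 against 1.33 in replicates b. Both dye orientations had a positive difference, and whether they had the same size depended on the processing. The probe ranked 9 of 43653 by p and 19 by the size of a positive difference, and among genes *NANOG* ranked 3 by p and 9 by difference. It was the 1 member probe with a 2-fold or larger positive difference, which 0.165% of all probes had. With 1 array left out, in fits without the dye term, the difference was 1.30 to 1.38, and 1.37 without the array with the uneven spot.

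On the same arrays the call for *NANOG* depended on the processing. Without background correction probe 1 had a log2 difference of 1.37 and passed in limma (adjusted p = 0.0264), and on the authors' processed values it had 1.37 and passed as well (adjusted p = 0.00271). The adjusted p ranged from 0.00271 to 0.9999 over all settings tried, the highest with an array left out. The smallest difference was 1.00, from the pixel medians, where the SE was 0.15. *NANOG* probe 2 had a log2 difference of 0.80 (SE 0.082, 95% interval 0.57 to 1.03, limma adjusted p = 0.270), with 0.72 from replicates a and 0.88 from replicates b. Its difference was 0.35 with the mean of the local background and 1.02 without background correction. Probe 3 had a log2 difference of 0.25 (SE 0.073, 95% interval 0.043 to 0.45, limma adjusted p = 0.431), and 0.031 with the background mean.

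*SOX2* probe 1 had a log2 difference of 0.29 (SE 0.092, 95% interval 0.028 to 0.54), which is 1.22-fold, with limma's unadjusted p = 0.0373 and adjusted p = 0.460. Replicates a gave 0.40 and replicates b 0.17. Leaving out MAPK-inhibited replicate a, which has the uneven spot, gave 0.10, and leaving out MAPK-inhibited replicate b gave 0.47. These fits had no dye term and unequal dye orientations between groups, so they do not isolate the uneven spot. Centring each array on its median in place of loess gave 0.12. *SOX2* probe 2 had a log2 difference of 0.37 with a 95% interval of -0.66 to 1.40, and its sign was opposite in replicates a (-0.34) and replicates b (1.08). Probes 3, 4 and 5 lay at 0.01, 0.05 and -0.06.

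*PRDM14* had a log2 difference of 0.08 (SE 0.097, 95% interval -0.19 to 0.35), with limma's unadjusted p = 0.467 and adjusted p = 0.861. Its sign was opposite in replicates a (-0.05) and replicates b (0.21), and negative under 3 alternative settings (-0.012 to -0.085). The interval corresponds to 0.874-fold to 1.28-fold.

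Counted over probes, 4 of the 9 had both MAPK-inhibited arrays above both control arrays, the 3 of *NANOG* and probe 1 of *SOX2*, against 17.2% of all probes. The same 4 had an unadjusted p under 0.05 with a higher value, against 5.5% of all probes. In the other direction, 0 of the 9 had both MAPK-inhibited arrays below both control arrays (18.3% of all probes), 0 had a lower value at an unadjusted p under 0.05 (4.63%) and 0 were 2-fold or more lower (0.167%). The difference was positive for 8 of the 9, against 49.7% of all probes. Of these 8 probes 3 belonged to *NANOG*, 4 to *SOX2* and 1 to *PRDM14*.

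**Figure D3:**
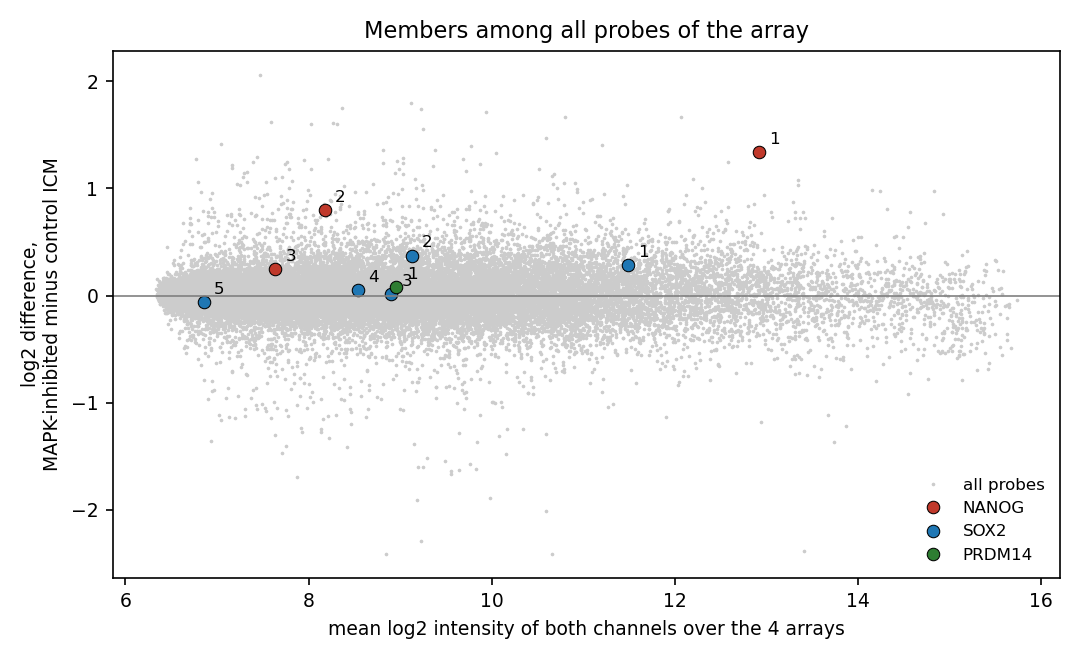
Log2 difference between MAPK-inhibited and control ICM (vertical axis) against the mean log2 intensity of both channels over 4 arrays (horizontal axis) for all 43653 probes in grey, with the 9 member probes coloured and numbered. *NANOG* probe 1 (1.34) lies near the top of the probes of like brightness, *NANOG* probe 2 (0.80) lies at the upper edge, and the *SOX2* and *PRDM14* probes lie within the cloud.

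The members were also compared with each other within arrays, with the brightest probe of each. The log2 ratio of *NANOG* minus that of *SOX2* was 1.29 and 1.59 in MAPK-inhibited ICM and 0.36 and 0.41 in control ICM, a difference of 1.05. The log2 ratio of *NANOG* minus that of *PRDM14* was 2.14 and 2.03 in MAPK-inhibited ICM and 0.75 and 0.89 in control ICM, a difference of 1.26. For both pairs the groups did not overlap. For *SOX2* minus *PRDM14* the values were 0.85 and 0.44 in MAPK-inhibited ICM and 0.39 and 0.48 in control ICM, which overlapped. An exact permutation test over arrays, two-sided, gave p = 0.333 for each of the *NANOG* pairs and p = 0.667 for *SOX2* and *PRDM14*. The test does not use the pairing of arrays by replicate letter, and with 6 possible assignments of 4 arrays 0.333 is the smallest p it can give, so it cannot pass 0.05.

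*GATA6*, the hypoblast factor set against *NANOG* in the mouse, was added as a 4th pair with earlier results known. It had log2 ratios of -0.81 and -0.61 in MAPK-inhibited ICM and of -0.19 and -0.12 in control ICM, and *NANOG* minus *GATA6* was 3.53 and 3.27 in MAPK-inhibited ICM and 1.58 and 1.44 in control ICM, a difference of 1.89 (exact permutation p = 0.333). This used the brighter *GATA6* probe, with a difference between the groups of -0.55, and the other probe had -0.15. Adjusted over the 4 pairs, the p was 0.444 for the 3 pairs with *NANOG* and 0.667 for *SOX2* minus *PRDM14*.

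**Figure D4:**
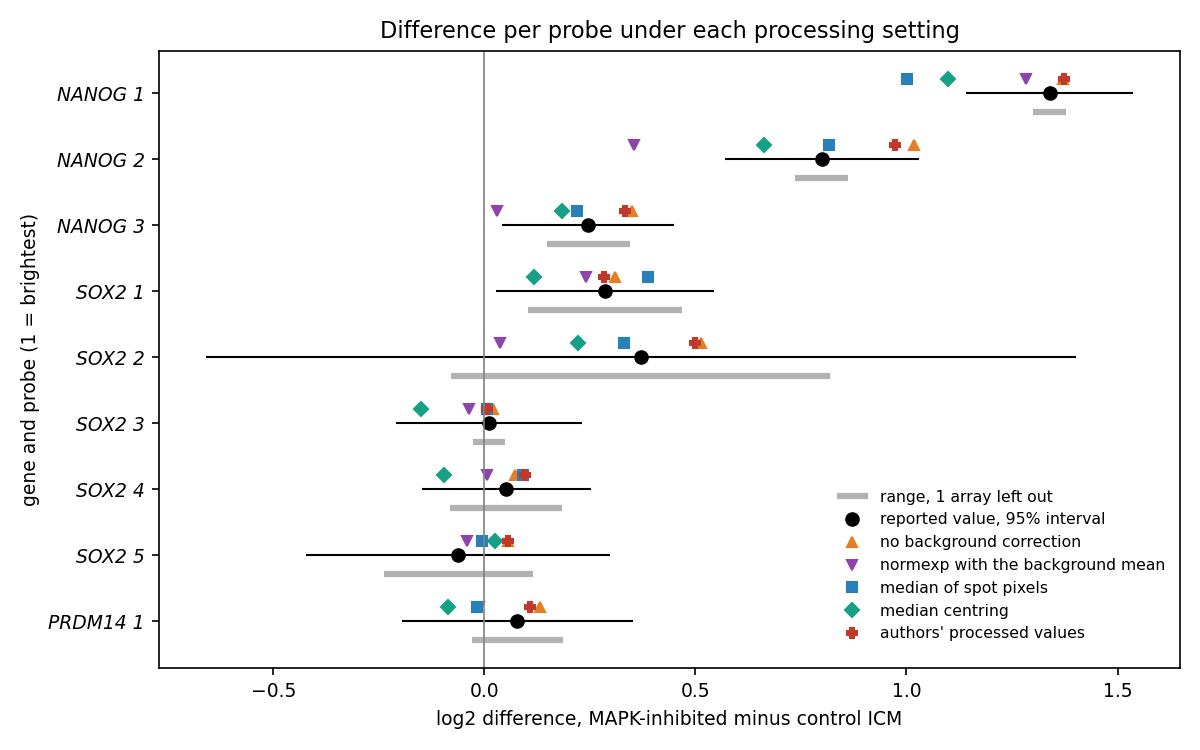
Log2 difference between MAPK-inhibited and control ICM (horizontal axis) for the 9 probes (vertical axis); black points and lines are the reported values with 95% intervals, coloured symbols the other processing settings, and grey bars the range with 1 array left out. The difference of *NANOG* probe 1 stayed between 1.00 and 1.38 throughout, whereas those of *PRDM14* and *SOX2* probes 2 to 5 lie on both sides of 0.

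For each member, the genes with the most similar pattern were found by the Euclidean distance over the 4 log2 ratios, among 11496 genes above background on all arrays. This distance uses the same values as the comparison above and is a description. No gene came near *NANOG*, whose nearest neighbour was *CAV1*, the gene of the membrane protein caveolin-1, at a distance of 1.01. *CAV1* had ratios of 2.06 and 1.92 in MAPK-inhibited ICM and of 1.25 and 1.21 in control ICM, a similar shape at a lower level. It was followed by the protease gene *KLK7* (1.20), *MOB3C* (1.22), the calcium-binding protein gene *S100B* (1.35) and the protease gene *PRSS12* (1.37). Their log2 differences between the groups were 0.76 for *CAV1*, 0.76 for *KLK7*, 0.87 for *MOB3C*, 1.71 for *S100B* and 1.17 for *PRSS12*.

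*SOX2* had closer neighbours. *AP1S2*, which encodes a subunit of a clathrin adaptor, lay at a distance of 0.24, with ratios of 1.39 and 1.05 in MAPK-inhibited ICM and of 0.96 and 0.67 in control ICM. *SH3BGRL* (0.30), *CTHRC1* (0.32), *MGC127133* (0.32) and the endothelin gene *EDN3* (0.32) followed, with differences between the groups of 0.23 to 0.46. *PRDM14* had the closest neighbours of the 3 genes, at its moderate ratio. *PFKFB4*, an enzyme gene of glycolytic control, lay at 0.066, *PLPP3* at 0.076, *KLHL24* at 0.086, *NME1* at 0.13 and *RRP7* at 0.13, and their differences between the groups were 0.06 to 0.19.

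The other genes of the pluripotency network had differences in both directions. Of 42 listed genes 20 were measured under their symbols, and each was represented by its brightest probe. *POU5F1*, the gene of OCT4, is on the list but was matched to no probe by its symbol and was not analysed here. At an unadjusted p under 0.05, 0 of the 20 genes were higher and 2 were lower in MAPK-inhibited ICM, against 8.77% of all genes higher and 5.45% lower. By sign, 11 were positive and 9 negative (51.9% of all genes were positive), with a median log2 difference of 0.014, against 0.0069 over all genes. None passed the adjusted threshold. The median of the list took both signs over the settings tried, from -0.10 to 0.08.

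The 2 lower genes were *KLF4* and *PRDM1*. *KLF4*, a Krüppel-like factor that keeps mouse stem cells in the naive state, had log2 ratios of -0.31 and -0.31 in MAPK-inhibited ICM and of 0.14 and -0.0016 in control ICM, without overlap. Its log2 difference was -0.38 (SE 0.078, limma unadjusted p = 0.00907), and its second probe had -0.12. *PRDM1*, a repressor of the same family as *PRDM14* that is needed for mouse germ cells, had log2 ratios of 0.15 and -0.01 in MAPK-inhibited ICM and of 0.35 and 0.53 in control ICM. Its log2 difference was -0.37 (SE 0.11, limma unadjusted p = 0.0303), and its other probes had -0.27, -0.02 and -0.0030. The *PRDM1* probe was dim, with a mean log2 intensity of 7.13.

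The 6 further network genes named by p did not pass the unadjusted threshold. *SOX15*, a relative of *SOX2*, had log2 ratios of 0.35 and 0.95 in MAPK-inhibited ICM and of 0.28 and -0.06 in control ICM, with a difference of 0.54, most of it from replicates b. *TRIM28*, a corepressor gene, had 0.34 and 0.86 in MAPK-inhibited ICM and 0.32 and 0.11 in control ICM, a difference of 0.38. *ZIC2*, a zinc finger factor of the epiblast in the mouse, had -0.21 and 0.64 in MAPK-inhibited ICM and 0.88 and 0.71 in control ICM, a difference of -0.58. The *ZIC2* value was -1.29 without background correction and -1.12 on the authors' processed values. In fits without the dye term it was -0.15 without MAPK-inhibited replicate a and -1.004 without MAPK-inhibited replicate b. In these 3 genes the groups did not overlap, but the MAPK-inhibited arrays lay farther from each other than the group means did. *TBX3* had a difference of -0.19, and *MYCN* and *DNMT3L* had 0.12 each.

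The families of the members were counted as well, as lists added after the files had been seen, and 3 of the *SOX* genes and 1 of the *PRDM* genes stand on another list too. Of 11 other *SOX* genes, 2 were higher and 0 lower at an unadjusted p under 0.05, against 8.77% of all genes higher and 5.45% lower, with a median log2 difference of 0.08. The 2 were *SOX5* (0.35) and *SOX10* (0.22), but over all probes of the gene the difference ranged from -0.0077 to 0.35 for *SOX5* and from -0.62 to 0.22 for *SOX10*. Of 9 other *PRDM* genes 0 were higher and 1 was lower, *PRDM1*, with a median of 0.02. *SOX5* and *SOX10* were named after their values had been seen.

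Targets of ERK were described beside the members to see whether the inhibitor had left a trace in the same samples. *SPRY2*, which encodes a feedback inhibitor of the pathway, had log2 ratios of 0.21 and -0.25 in MAPK-inhibited ICM and of 0.65 and 0.68 in control ICM, a difference of -0.68. Its second probe had -0.49, and without MAPK-inhibited replicate b and the dye term the difference was -0.45. *DUSP4*, the gene of an ERK phosphatase, had a difference of -0.61, which depended on the background: it was -0.22 with the background mean, -0.94 without background correction and -0.95 on the authors' processed values, where it passed in limma (adjusted p = 0.0325; 0.0325 to 0.9999 over the settings tried). The second *DUSP4* probe had -0.034. *SPRED1*, another feedback inhibitor gene, had -0.46, and its other probes had -0.02, -0.15 and -0.0023. The immediate early gene *IER3* had 0.25 instead. Of 16 measured targets 13 had a negative and 3 a positive difference, with a median of -0.11, against 51.9% positive and a median of 0.0069 over all genes. At an unadjusted p under 0.05, 4 were lower (5.45% of all genes) and 1 was higher (8.77%). The median stayed negative under every setting, between -0.18 and -0.037. Each target was counted by its brightest probe, which for *EGR1* had -0.068 and for *DUSP6* -0.0095. Over all probes of the gene the difference ranged from -1.62 to 0.040 for *EGR1* and from -0.96 to -0.0095 for *DUSP6*. For *SPRED2* it ranged from -0.12 to 0.15. These genes were named after their values had been seen.

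**Figure D5:**
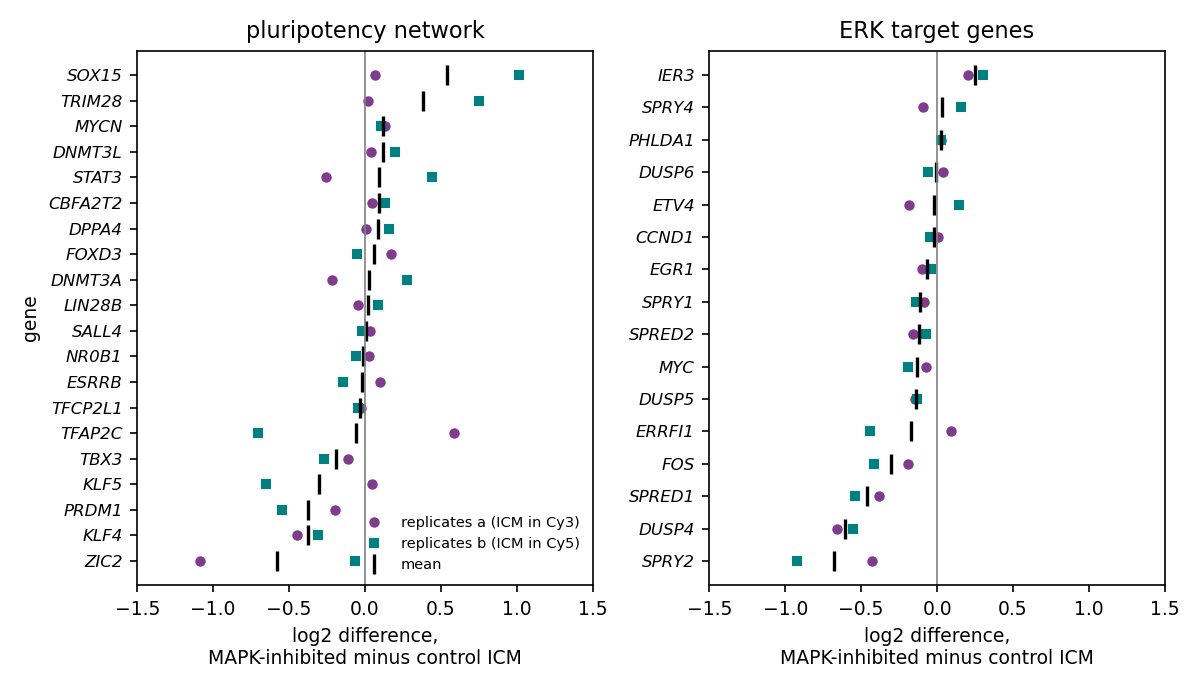
Log2 difference between MAPK-inhibited and control ICM (horizontal axis) for 20 measured genes of the pluripotency network (left panel) and 16 ERK targets (right panel), each gene on its own row; circles come from replicates a, squares from replicates b and black ticks are their mean. The network genes spread to both sides of 0 (11 positive, 9 negative), whereas 13 of 16 ERK targets lie below 0.

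Markers of other cells in the ICM samples moved as follows beside the members. Of 15 measured hypoblast genes 0 were higher and 5 lower at an unadjusted p under 0.05, against 8.77% of all genes higher and 5.45% lower. Of the 15, 7 had both MAPK-inhibited arrays below both control arrays, against 2201 of 12545 genes. In the other direction, 0 had both MAPK-inhibited arrays above both control arrays, against 2496 of 12545 genes. The lower genes included *FST*, the gene of follistatin (-1.27, limma unadjusted p = 6.93e-05), and the basement membrane gene *NID1* (-1.01, limma unadjusted p = 0.00216). Over all probes of the gene the difference ranged from -1.27 to -0.44 for *FST* and from -1.01 to 0.089 for *NID1*. *FST* and *NID1* were named after their values had been seen. By sign, 2 hypoblast genes had a positive and 13 a negative difference, with a median of -0.10, while 51.9% of all genes were positive. The 2 positive genes were *HNF4A* (0.046) and *DAB2* (0.20). The medians of the hypoblast log2 ratios over the pool were -0.08 and -0.21 in MAPK-inhibited ICM and 0.04 and -0.00046 in control ICM. Of 13 measured trophectoderm genes 2 were higher and 3 lower at an unadjusted p under 0.05, beside the same 8.77% and 5.45% of all genes. By sign, 6 trophectoderm genes had a positive and 7 a negative difference, with a median of -0.02. Their median ratios were -0.20 and -0.06 in MAPK-inhibited ICM and -0.11 and -0.02 in control ICM. Of 11 genes of cumulus and granulosa cells 3 were higher and 1 lower at an unadjusted p under 0.05. By sign, 7 of these 11 genes were positive and 4 negative, with a median of 0.05. Their part in the values of *NANOG*, *SOX2* and *PRDM14* was not tested.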

How the data were processed

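Total RNA was amplified, labelled with Cy5 and Cy3 and hybridised by the authors, who quantified spots with Imagene. The deposited scanner files hold, per spot and channel, mean and median pixel intensity and local background, neither subtracted nor normalized. The authors also deposited a value table of log2 ratios, made by loess and a correction of gene-specific dye bias, which was used only as an alternative. Regression of the scanner's log2 Cy5 over Cy3 on its columns gave slopes of -1.03 and 1.04 (MAPK-inhibited ICM a and b) and -1.04 and 1.05 (control ICM a and b), so its columns are log2 ratios of ICM over pool. Their medians were 0.015 and 0.0099 for MAPK-inhibited ICM and 0.0041 and 0.0098 for control ICM, and how the columns were centred is unknown.

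In limma 3.58.1 (R 4.3.3), normexp with an offset of 50 was run on mean spot intensities and the median local background, and ratios were normalized by loess within each array, with 1567 control spots at weight 0. The mean of the local background was an alternative, since it left negative control spots at medians of 387 and 306 on the MAPK-inhibited arrays and 415 and 168 on the control arrays. With the median background, the offset of 50 included, they stood at 144 and 55 on the MAPK-inhibited arrays and 95 and 54 on the control arrays. The reported setting thus also left them unequal between arrays. All these medians are from the ICM channel. Group and dye terms were fitted with lmFit and eBayes (1 residual and 2.90 prior degrees of freedom), two-sided, with Benjamini-Hochberg adjustment over 43653 probes. The study's methods describe an F test with shuffled residuals, which was not run. Since each replicate letter stands for 1 dye orientation, the dye term doubles as replicate block, and the deviations of same-letter arrays correlated with r = 0.454. No other pairing is given. Fits with 1 array left out had no dye term, so their values also carry any imbalance in dye orientation between the groups. The number of arrays limits the precision.

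In the platform annotation 27952 probes had 1 symbol, 0 had several and 15701 had none. RefSeq's genes of ARS-UCD2.0 served to update 1831 symbols, and no coordinates are given. A gene was represented by its brightest probe. Named genes were the members, the 5 genes nearest to each member, up to 8 genes of the network list and up to 4 ERK targets with the smallest p, the same sign in both dye orientations and a probe brighter than background on both arrays of at least 1 group. Members and lists were chosen with earlier results of these data known. Scripts were tested on simulated data.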

Additional observations from a re-analysis of the deposited data

How the results depend on the processing

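No probe passed the adjusted threshold in the reported fit or with the background mean, pixel medians, median centring, only probes above background, or no replicate block; the differences of the 9 member probes without the replicate block were the same, as for *NANOG* probe 1 (1.34). The count was 43 without background correction (17 higher, 26 lower) and 319 on the authors' processed values (164 higher, 155 lower). With 1 array left out it was 0 to 101, namely 42 without MAPK-inhibited replicate a and 101 without MAPK-inhibited replicate b. At an unadjusted p under 0.05, 2403 probes were higher and 2022 lower in the reported fit, 904 and 4763 under median centring, and 1641 and 2153 with the background mean. The cause of these shifts was not tested.

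*NANOG* probe 1 passed at 1.37 (adjusted p = 0.0264) without background correction and at 1.37 (adjusted p = 0.00271) on the authors' values, where probe 2 passed at 0.97. Its ratio over the pool in MAPK-inhibited ICM was 2.62 with the background mean, 2.38 with pixel medians, 2.52 under median centring and 2.74 on the authors' values, and that in control ICM was 1.42 under median centring. The *PRDM14* ratio in MAPK-inhibited ICM was 0.71 without background correction, 0.38 with the background mean, 0.53 with pixel medians, 0.48 under median centring and 0.69 on the authors' values.

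Differences near 0 changed sign. *PRDM14* stood at -0.012 with the background mean, -0.018 with pixel medians and -0.085 under median centring. With the background mean, *SOX2* probe 3 stood at -0.037, *PFKFB4* at -0.058, *PLPP3* at -0.050 and *KLHL24* at -0.011. Under median centring, *SOX2* probes 3, 4 and 5 stood at -0.15, -0.095 and 0.025, *DNMT3L* at -0.052, *PFKFB4* at -0.12, *PLPP3* at -0.063 and *NME1* at -0.038. *NME1* stood at -0.32 with pixel medians. *SOX2* probe 5 stood at 0.055 without background correction and at 0.055 on the authors' values. With 1 array left out, *PRDM14* ranged from -0.030 to 0.19, *SOX2* probe 2 from -0.078 to 0.82, probe 3 from -0.027 to 0.049, probe 4 from -0.081 to 0.18, probe 5 from -0.24 to 0.11, *DNMT3L* from -0.11 to 0.35, *PFKFB4* from -0.048 to 0.16 and *NME1* from -0.0025 to 0.22.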
